A study of Mus musculus with 6 samples.

Results

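NuRD, Polycomb and BAF are multi-subunit complexes that set the state of chromatin, and 46 genes for their subunits were followed here: 14 of NuRD, 14 of Polycomb and 18 of BAF. They were chosen by name as subunits of these complexes, and each matched a single symbol among the 55416 genes of the deposited counts. Total RNA of the ganglionic eminences was sequenced. These are the ventral swellings of the embryonic forebrain that produce striatal neurons and cortical interneurons. The tissue came from mouse embryos at E13.5, an embryonic day at which the eminences produce neurons, 3 lacking both Dlx1 and Dlx2 (double knockout) and 3 wild-type littermates. Dlx1 and Dlx2 encode homeodomain transcription factors of these eminences. The strain, the allele design and the sex of the embryos were not given in the sources used here.

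NuRD couples an ATPase of the CHD family, which moves nucleosomes, with the histone deacetylases HDAC1 and HDAC2. Polycomb proteins form a pair of complexes, of which one methylates histone H3 and the other ubiquitinates histone H2A, and both hold developmental genes silent. BAF is the mammalian SWI/SNF remodeller and generally opens chromatin. As neural progenitors leave the cell cycle, BAF is known to exchange ACTL6A, PHF10 and SS18 for the neuronal subunits ACTL6B, DPF1 or DPF3, and SS18L1, and CHD proteins are exchanged in a similar way in NuRD of developing cortex.

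Of the 46 subunit genes, 3 differed between the genotypes, each from a different complex and each lower in double knockout embryos. They were Chd3 of NuRD, at 71.8% of its wild-type level, Dpf1 of neuronal BAF, at 73.9%, and Bmi1 of Polycomb, at 84.7%. None was higher. These 3 were 6.52% of the 46, against 2.68% of the 23628 genes tested and 1.34% called in the lower direction. A gene was called when its p from the quasi-likelihood test of edgeR, adjusted over all tested genes by the Benjamini-Hochberg method, was under 0.05. Among the 12212 tested genes at least as abundant as the lowest member, 4.09% were called. The members were chosen with earlier results of these data known, so these shares are descriptions. The other 43 members did not pass, and for 38 of them the whole 95% confidence interval of the difference lay between 80% and 125% of the wild-type level. Changes by more than 1.25-fold were thus outside the interval for most members. For 6 of the 43, all of BAF and all lower, the unadjusted interval excluded no change, though the adjusted p did not pass.

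**Figure D1:**
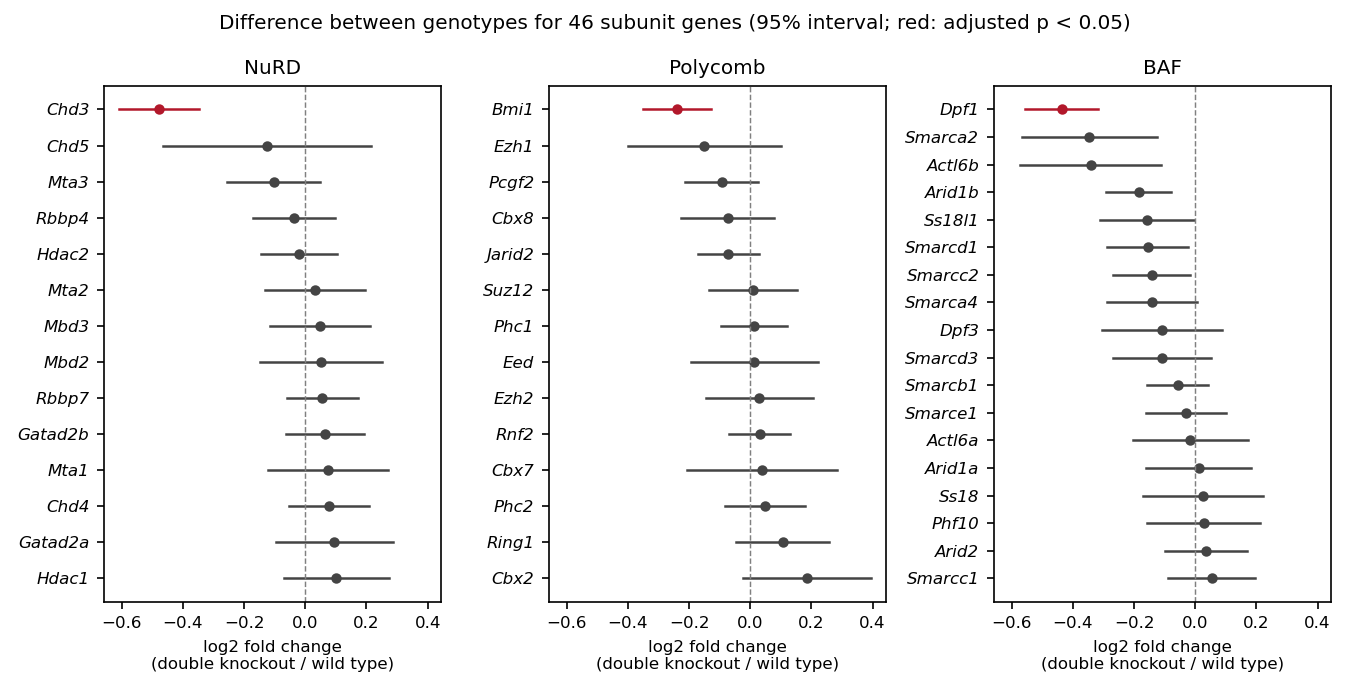
Log2 fold change of the double knockout over the wild type (x axis) for the 46 subunit genes by complex (y axis), with the 95% confidence interval as a line and called genes in red. Chd3, Bmi1 and Dpf1 are the leftmost points of their panels, at -0.48, -0.24 and -0.44.

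The sequences upstream of the called genes are shown as a description, and any part of them in the lower levels was not tested. They are the 250 bases before the RefSeq transcription start, 5′ to 3′ on the gene's strand, in build GRCm38.p6, which differs from the GRCm39 build named in the submitters' processing notes. RefSeq promoter entries were matched by symbol for 38 of the 46 members, and no entry was found for Chd3. Capitals mark matches on either strand to 4 motifs chosen after the sequences had been seen: the GC box GGGCGG, the CCAAT box, the E-box CACGTG and the homeodomain core TAATTA. Adjacent or overlapping matches run together.
Dpf1, chr7:29303755-29304004, plus strand: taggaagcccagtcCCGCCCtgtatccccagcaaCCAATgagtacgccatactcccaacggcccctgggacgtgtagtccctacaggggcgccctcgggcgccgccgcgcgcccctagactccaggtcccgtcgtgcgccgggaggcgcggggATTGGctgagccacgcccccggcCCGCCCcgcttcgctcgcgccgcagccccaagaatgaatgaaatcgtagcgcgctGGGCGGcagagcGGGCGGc
Bmi1, chr2:18676768-18677017, plus strand: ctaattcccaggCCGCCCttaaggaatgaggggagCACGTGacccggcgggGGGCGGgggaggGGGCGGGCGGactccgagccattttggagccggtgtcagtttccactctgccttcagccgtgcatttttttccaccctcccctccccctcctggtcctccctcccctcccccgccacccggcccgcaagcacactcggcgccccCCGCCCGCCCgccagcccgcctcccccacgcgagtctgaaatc
The Dpf1 window held 4 GC boxes and 2 CCAAT boxes, and the Bmi1 window held 6 GC boxes and 1 CACGTG. Neither held TAATTA. Of all 32851 windows of the same length, 32.7% held a GC box, 33.8% a CCAAT box, 6.02% CACGTG and 4.84% TAATTA. The windows were rich in G and C, at 71.6% for Dpf1 and 70.4% for Bmi1, against a median of 52.4% over all windows. No motif share was computed over windows of similar G and C content.

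Total counts were 56618090 to 70114173 per library, and the members were counted 316 to 60896 times in a library. Reads without molecular identifiers are not independent molecules. The targeted genes checked the labels. Dlx1 was at 438.9 ± 6.12 CPM (read count scaled by library size with TMM factors; SD, n = 3) in wild-type embryos and 81.6 ± 10.8 in double knockout embryos, and Dlx2 at 295.7 ± 16.1 and 8.68 ± 1.99. Of 12 ganglionic eminence markers, 11 (91.7%) were called, 8 lower and 3 higher, against 2.68% of all tested genes, and all were detected. The 12 include Dlx1 and Dlx2 themselves, whose lower calls repeat the check of the labels. The summed level of 10 blood and vessel markers overlapped between groups, at 180.2 to 210.4 CPM in wild-type embryos and 178.0 to 227.1 in double knockout embryos, as did that of 10 microglial and meningeal markers, at 43.3 to 54.9 and 44.0 to 54.0 CPM. The 10 cortical excitatory markers summed to 989.0 to 1007 CPM in wild-type embryos and 777.3 to 799.8 in double knockout embryos, without overlap. Only 1 of the 10 was called, but 8 (80%), all lower, had an unadjusted edgeR p under 0.05. In that direction 6.81% of all tested genes did. Reads of Y-linked genes reached 206.5 to 213.9 CPM in wild-type replicate 1 and double knockout replicates 2 and 3 and at most 0.168 CPM in the others, so both patterns occurred in both genotypes.

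Levels of neuronal and progenitor markers are given here because these cells differ in the subunits they use, and the part of these markers in the results below was not tested. The 14 pan-neuronal markers summed to 7245 to 7774 CPM in wild-type embryos and 5950 to 6944 CPM in double knockout embryos, without overlap. Of the 14, 2 (14.3%) were called, against 2.68% of all tested genes. Both were lower, and the median log2 fold change was -0.17. In edgeR 6 of the 14 (42.9%), all lower, had an unadjusted p under 0.05, against 6.81% of all tested genes in that direction. The 12 progenitor markers summed to 3933 to 4330 CPM in wild-type embryos and 4238 to 5183 CPM in double knockout embryos, with overlap. None of the 12 was called by edgeR, and the median log2 fold change was 0.15. In edgeR 4 of the 12 (33.3%), all higher, had an unadjusted p under 0.05, against 6.52% of all tested genes in that direction. In this bulk tissue, fewer cells of a type and less RNA per cell cannot be told apart. Double knockout replicate 3 stood apart from its group in these sums, with the lowest neuronal and the highest progenitor sum of all 6 libraries. It was also the highest or the lowest library for 31 of the 46 members, or 67.4%, against 45.5% of all tested genes and 55.1% of those at least as abundant as the lowest member. Without it, the members called were 4, all lower, with Smarca2 added to the 3.

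In NuRD, the ATPase gene Chd3 (ENSMUSG00000018474) was the only called gene of 14. Chd3 was at 969.5, 937.0 and 949.2 CPM in wild-type replicates 1 to 3 and at 716.3, 673.8 and 661.4 CPM in double knockout replicates 1 to 3. Every double knockout library was below every wild-type library by more than the range within either group. The log2 fold change was -0.48 (standard error 0.0573) and the adjusted p in edgeR was 0.00331, and Chd3 was called in all 14 alternative fits. It had the highest level per exon length of the NuRD members in the wild type, at 112.7 CPM per kb.

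Chd4, the CHD ATPase gene known for progenitors, was at 688.8, 726.0 and 737.7 CPM in wild-type embryos and 747.2, 742.9 and 781.7 CPM in double knockout embryos. Its groups did not overlap either, but by only a few CPM, and it did not pass the test, with a log2 fold change of 0.08 (standard error 0.0568) at an edgeR adjusted p of 0.655. Groups did not overlap in the higher direction for 9.3% of all tested genes. Chd5, the CHD gene best known from neurons, was at 132.4, 108.0 and 114.5 CPM in wild-type embryos and 128.3, 115.2 and 82.1 CPM in double knockout embryos. The low value of replicate 3 set the double knockout mean, and without that library the log2 fold change was 0.05 in place of -0.12. Its interval, from -0.46 to 0.21, was the widest in NuRD.

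**Figure D2:**
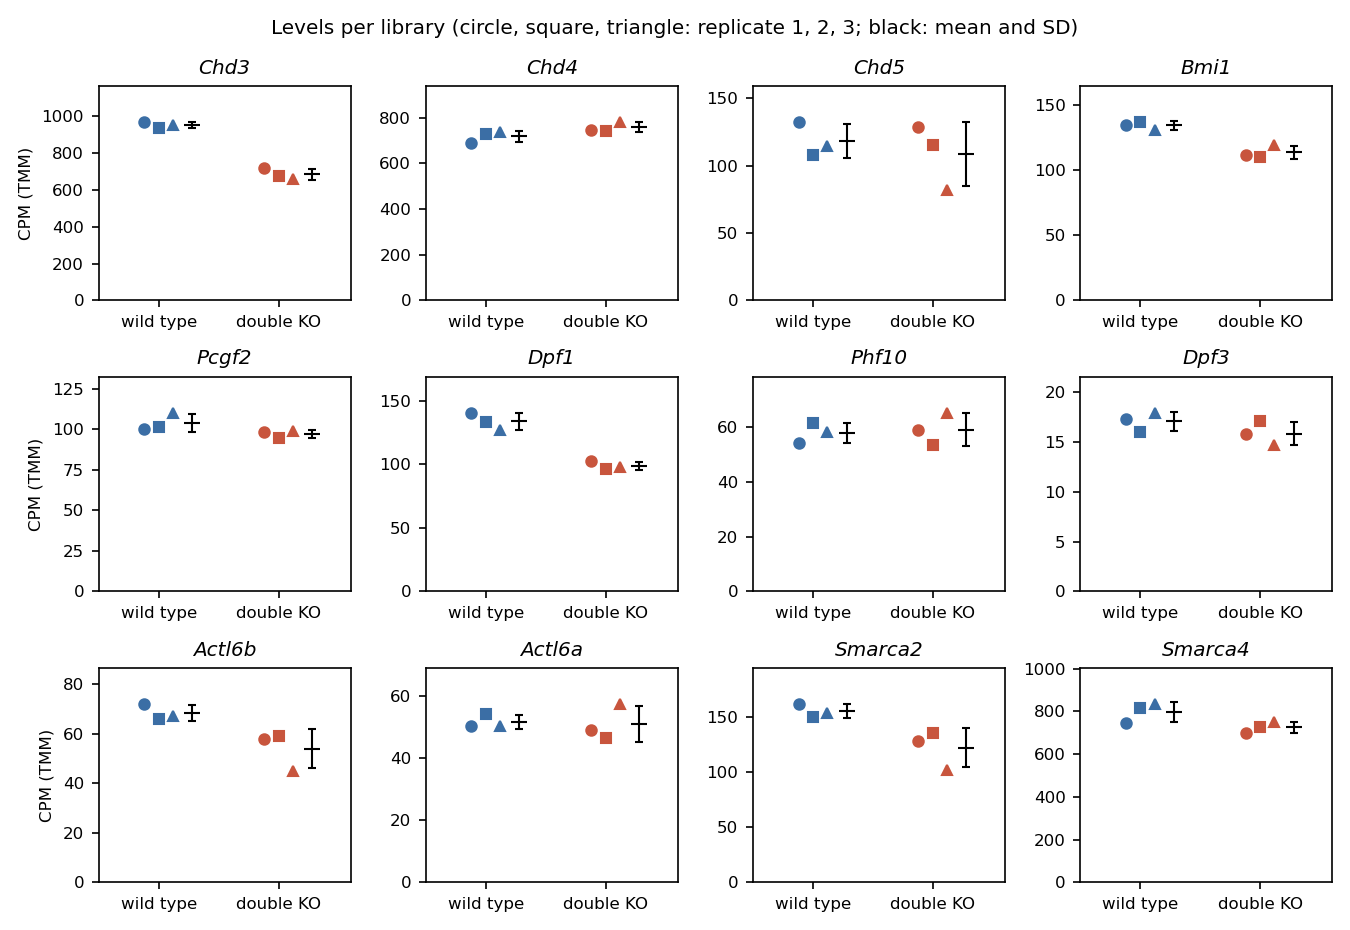
Levels of 12 subunit genes in CPM after TMM scaling (y axes, each from 0) in the 3 wild-type (blue) and 3 double knockout (red) libraries, with replicates 1 to 3 as circle, square and triangle and the mean ± SD in black. The groups are apart for Chd3, Bmi1, Dpf1, Actl6b and Smarca2 and, by small gaps, for Chd4 and Pcgf2. Double knockout replicate 3 (red triangle) is the lowest library for Chd3, Chd5, Dpf3, Actl6b and Smarca2.

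The share of the CHD transcripts taken by each ATPase gene followed from these levels. Per exon length, Chd3 took 52.0% to 53.5% of the summed Chd3, Chd4 and Chd5 level in wild-type embryos and 42.5% to 44.3% in double knockout embryos. Chd4 took 40.0% to 42.5% and 48.7% to 52.9%. Chd4 thus had the larger share in every double knockout library and the smaller share in every wild-type library. Chd5 took 4.65% to 6.99% over all libraries. These shares are descriptions, since 3 libraries against 3 cannot give an exact two-sided p below 0.1.

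The deacetylase genes did not pass the test. Hdac1 was at 37.4, 40.8 and 38.5 CPM in wild-type embryos and 39.1, 40.3 and 45.9 CPM in double knockout embryos (edgeR adjusted p 0.659). Hdac2 was at 305.9, 326.8 and 312.6 CPM and 300.8, 306.8 and 324.5 CPM (edgeR adjusted p 0.928), and the interval of its log2 fold change ran from -0.14 to 0.10. As counted, Hdac2 was the major deacetylase transcript. It held 86.0% to 86.3% of the summed level per exon length in wild-type embryos and 84.5% to 85.6% in double knockout embryos, without overlap. A counted gene named Hdac1-ps held 3152 to 4867 reads per library, against 2189 to 3186 for Hdac1 itself. Smarce1-ps1 held 2734 to 3468, so reads of Hdac1 and Smarce1 may be split with these copies. The shares of Hdac1 and Hdac2 leave out the reads of Hdac1-ps and are uncertain for that reason.

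The other 9 NuRD members are the histone-binding genes Rbbp4 and Rbbp7, the MTA scaffold genes, the methyl-CpG-binding domain genes Mbd2 and Mbd3, and the GATAD2 genes that bridge MBD and CHD proteins. None passed. Their log2 fold changes ran from -0.10 for Mta3 to 0.09 for Gatad2a. Mta3 had the smallest adjusted p of the uncalled NuRD members, 0.598 in edgeR. It was at 22.9, 23.3 and 22.0 CPM in wild-type embryos and 20.8, 21.9 and 20.8 CPM in double knockout embryos, groups that did not overlap. Of the 13 uncalled NuRD members, 12 had an interval within the bounds of 80% and 125%, and Chd5 was the exception.

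In Polycomb, Bmi1 (ENSMUSG00000026739) was the only called gene of 14. It encodes a RING-finger partner of the H2A ubiquitin ligase and is known for sustaining neural stem cell renewal. Bmi1 was at 134.7, 137.0 and 130.8 CPM in wild-type embryos and 111.7, 110.0 and 119.1 CPM in double knockout embryos. The groups did not overlap, and the gap between them exceeded the range within either. The log2 fold change was -0.24 (standard error 0.0486) and the adjusted p in edgeR was 0.0399. This call was near the threshold: the edgeR adjusted p was 0.174, 0.150 and 0.0940 without wild-type replicates 1, 2 and 3, and 0.153 and 0.165 without double knockout replicates 1 and 2. It was 0.0138 without double knockout replicate 3, 0.0501 in limma-voom and 0.135 with Y-linked expression as a covariate. Its size, on the log2 scale, stayed between -0.27 and -0.21 in all 14 alternatives.

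Pcgf2, the paralogue that can take the place of BMI1, was at 100.2, 101.2 and 110.3 CPM in wild-type embryos and 98.1, 94.7 and 99.3 CPM in double knockout embryos. Its groups did not overlap, and it did not pass (edgeR adjusted p 0.517). The share of Bmi1 in the summed level of both per exon length was 51.3% to 54.6% in wild-type embryos and 50.3% to 51.6% in double knockout embryos, with overlap. Rnf2, the main catalytic ubiquitin ligase gene, was at 117.0, 113.0 and 115.2 CPM and 117.9, 114.5 and 120.2 CPM. Its interval was among the narrowest, from -0.07 to 0.13, and its edgeR adjusted p was 0.854. Ring1, its paralogue, had groups that did not overlap, at 22.7 to 24.0 CPM in wild-type embryos and 24.3 to 26.5 CPM in double knockout embryos, at an edgeR adjusted p of 0.587.

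The core of the methylating complex showed no difference that passed. Ezh2, its methyltransferase gene, was at 200.5, 229.6 and 214.0 CPM in wild-type embryos and 205.1, 211.1 and 241.5 CPM in double knockout embryos. The log2 fold change was 0.03 (standard error 0.0761), with an interval from -0.14 to 0.20 and an edgeR adjusted p of 0.923. Eed and Suz12, which EZH2 needs for activity, had log2 fold changes of 0.01 each, with edgeR adjusted p of 0.976 and 0.979. Ezh1, the paralogue more common in non-dividing cells, was at 16.9, 14.2 and 17.1 CPM and 13.6, 16.3 and 13.6 CPM (edgeR adjusted p 0.655). Ezh2 held 93.0% to 95.2% of the summed Ezh1 and Ezh2 level per exon length in every library. Jarid2, an accessory subunit gene, had groups that did not overlap, at 125.8 to 131.4 CPM and 119.6 to 125.3 CPM, at an edgeR adjusted p of 0.570.

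Among the chromodomain genes, which bind methylated histone H3, Cbx2 had the smallest adjusted p of the uncalled Polycomb members. It was at 66.4, 71.3 and 78.0 CPM in wild-type embryos and 73.4, 79.2 and 92.5 CPM in double knockout embryos, with a log2 fold change of 0.18 (standard error 0.0918) at an edgeR adjusted p of 0.449. Without double knockout replicate 3, the highest library, this value was 0.09. Cbx7 was the least abundant member of all 46, at 4.98 to 5.77 CPM. Of the summed level of Cbx2, Cbx7 and Cbx8 per exon length, Cbx2 took 68.6% to 71.0% in wild-type embryos and 71.8% to 75.5% in double knockout embryos, and Cbx8 took 25.9% to 27.5% and 21.7% to 24.6%. Both shares were without overlap between groups. The Polyhomeotic genes Phc1 and Phc2 had log2 fold changes of 0.01 and 0.05.

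In BAF, Dpf1 (ENSMUSG00000030584) was the only called gene of 18. It encodes a PHD-finger subunit found in neurons. Dpf1 was at 140.6, 133.7 and 127.3 CPM in wild-type embryos and 102.4, 96.3 and 98.2 CPM in double knockout embryos. All double knockout libraries lay well below all wild-type libraries. The log2 fold change was -0.44 (standard error 0.0522) and the adjusted p in edgeR was 0.00328, and it was called in all 14 alternative fits. Exons of Dpf1 overlap Gm44632 on the opposite strand over 1.79% of their length in GENCODE M21.

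Phf10, the progenitor counterpart of Dpf1, was at 54.3, 61.5 and 58.1 CPM in wild-type embryos and 58.8, 53.3 and 65.2 CPM in double knockout embryos (edgeR adjusted p 0.933). Dpf3, the other neuronal counterpart, was at 17.3, 16.1 and 18.0 CPM and 15.8, 17.1 and 14.8 CPM (edgeR adjusted p 0.687). The groups overlapped for both. Of the summed level of the 3 genes per exon length, Dpf1 took 59.6% to 63.3% in wild-type embryos and 52.1% to 54.8% in double knockout embryos, and Phf10 took 26.8% to 30.4% and 33.1% to 37.9%. Neither share overlapped between groups.

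Actl6b, the neuronal actin-like subunit gene, did not pass the threshold. It was at 72.0, 65.8 and 67.0 CPM in wild-type embryos and 57.9, 59.0 and 44.8 CPM in double knockout embryos, groups that did not overlap. The log2 fold change was -0.34 (standard error 0.101) at an edgeR adjusted p of 0.156, and replicate 3 of the double knockout lay far below the other libraries. Without that library it was -0.22, at an edgeR adjusted p of 0.0740. In DESeq2 the adjusted p was 0.0475. Actl6a, the progenitor counterpart, was at 50.3, 54.4 and 50.3 CPM and 49.1, 46.6 and 57.5 CPM, with a log2 fold change of -0.02 (standard error 0.0828) at an edgeR adjusted p of 0.966. The share of Actl6b in their summed level per exon length was 52.4% to 56.6% in wild-type embryos and 41.5% to 53.6% in double knockout embryos, with overlap.

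Ss18l1, the neuronal counterpart of Ss18, was at 128.6, 113.9 and 123.4 CPM in wild-type embryos and 114.6, 112.9 and 100.3 CPM in double knockout embryos (edgeR adjusted p 0.358). Ss18 was at 56.8, 57.5 and 64.1 CPM and 55.1, 58.4 and 68.1 CPM (edgeR adjusted p 0.942). Both pairs of groups overlapped. Of the 4 neuronal variants Actl6b, Dpf1, Dpf3 and Ss18l1, then, all had a negative log2 fold change and 1 was called, with a median of -0.25. In edgeR 3 of the 4, all lower, had an unadjusted p under 0.05, against 6.81% of all tested genes in that direction. The 3 progenitor variants had a median of 0.03 and none was called by edgeR or had an unadjusted p under 0.05. The median over all tested genes was -0.0016. The difference between neuronal and progenitor variants was not tested.

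**Figure D3:**
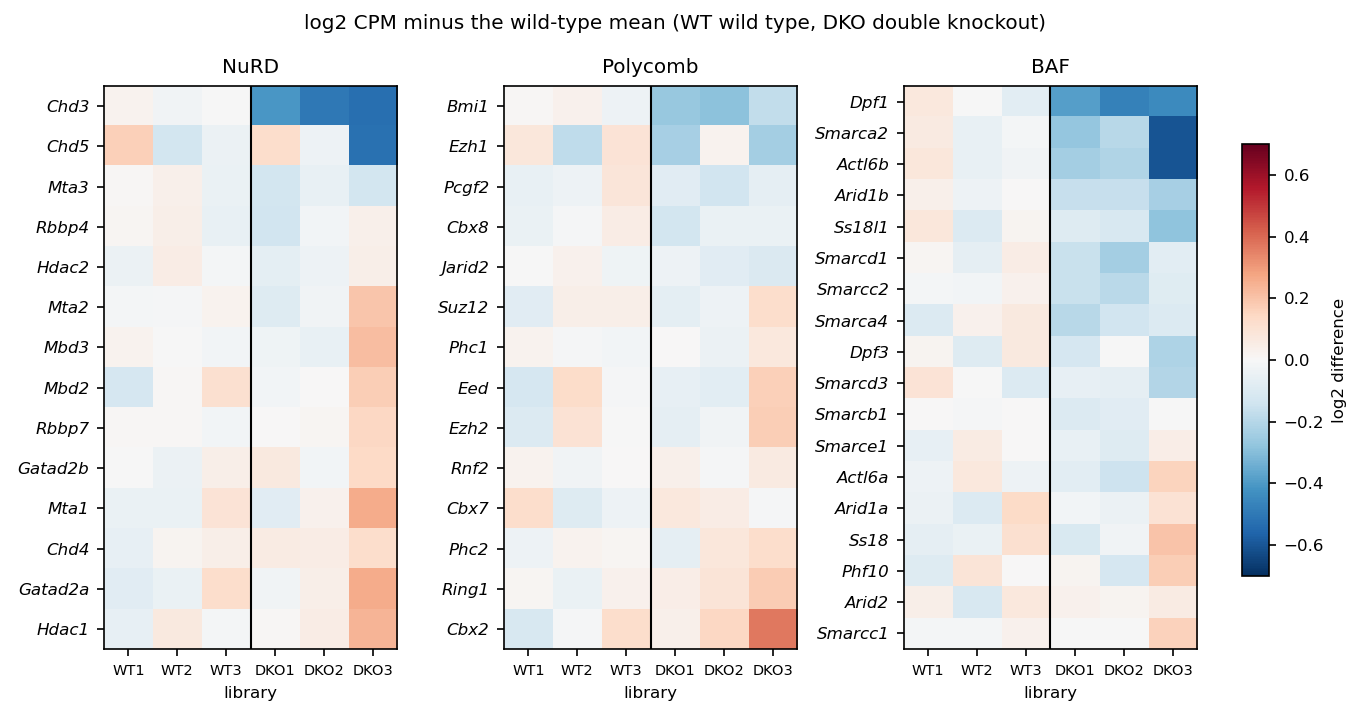
Log2 CPM of each subunit gene (rows, by complex) in each library (columns) minus the mean of the 3 wild-type libraries, red for higher and blue for lower. Chd3, Bmi1 and Dpf1 are blue in all 3 double knockout columns, and double knockout replicate 3 is the highest library for 21 of the 46 members and the lowest for 10.

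The BAF ATPase genes are Smarca4, which encodes BRG1, and Smarca2, which encodes BRM. Smarca4 was at 745.8, 815.2 and 835.4 CPM in wild-type embryos and 698.4, 726.9 and 748.0 CPM in double knockout embryos, with a log2 fold change of -0.14 (standard error 0.0641) at an edgeR adjusted p of 0.398. Smarca2 was at 162.4, 150.2 and 154.1 CPM and 128.9, 135.9 and 102.2 CPM, groups that did not overlap. Its log2 fold change was -0.35 (standard error 0.0969) at an edgeR adjusted p of 0.132. Without double knockout replicate 3, the lowest library, the size was smaller, at -0.23, but the spread was smaller too and the edgeR adjusted p was 0.0470. Smarca2 was also called in DESeq2 and without a filter on low counts. Smarca4 held 91.0% to 94.2% of the summed level of both per exon length in every library.

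Of the ARID genes, which define the BAF and PBAF forms, Arid1b had the smallest adjusted p of the uncalled BAF members. It was at 225.5, 214.7 and 220.8 CPM in wild-type embryos and 196.9, 197.2 and 187.3 CPM in double knockout embryos, without overlap. The log2 fold change was -0.19 (standard error 0.0471) at an edgeR adjusted p of 0.0945, and this p ranged from 0.0598 to 0.359 over the 14 alternatives. Arid1a and Arid2 had log2 fold changes of 0.01 and 0.03. The share of Arid1b among the 3 was 17.8% to 19.7% in wild-type embryos and 15.8% to 17.5% in double knockout embryos.

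None of the 6 scaffold genes was called by edgeR, and Smarcc2 and Smarcd1 had an unadjusted p under 0.05. Smarcc1, encoding BAF155, was at 499.5 to 514.9 CPM in wild-type embryos and 503.8 to 564.8 CPM in double knockout embryos. Smarcc2, encoding BAF170, was at 696.9 to 719.7 CPM and 618.9 to 664.4 CPM, without overlap (edgeR adjusted p 0.301). The share of Smarcc2 in their summed level per exon length was 66.3% to 66.4% in wild-type embryos and 62.4% to 63.9% in double knockout embryos. Smarcd1 was at 252.9, 239.6 and 259.3 CPM and 224.5, 212.4 and 238.0 CPM, without overlap by a small gap (edgeR adjusted p 0.283). Smarcd3, its paralogue, was at 46.5, 43.5 and 40.8 CPM and 41.9, 41.6 and 37.8 CPM (edgeR adjusted p 0.596). The counts of Smarcd3 are uncertain, since 48.2% of its exon length overlaps Chpf2 on the opposite strand. Smarcb1 and Smarce1 had log2 fold changes of -0.06 and -0.03.

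BAF as a list lay lower than the other complexes, by description alone. Of its 18 genes, 13 had a negative log2 fold change, with a median of -0.11, against medians of 0.05 in NuRD and 0.01 in Polycomb. An unadjusted p under 0.05 was found for 7 BAF genes, all lower, and for 1 gene in each of the other complexes, the called one. Over all 46 members this share was 19.6%. Among all tested genes it was 13.3%, and among those at least as abundant as the lowest member 17.3%. All 9 of these members were lower, however. In the lower direction alone the background was 6.81% of all tested genes, and 1198 of the 12212 at least as abundant as the lowest member. No overlap between groups was seen for 13 members, or 28.3%, of which 11 (23.9% of the members) were lower and 2 higher. The background was 19.5% over all tested genes, with 10.2% lower and 9.3% higher. Among those at least as abundant as the lowest member it was 24.2%, with 14.3% lower.

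**Figure D4:**
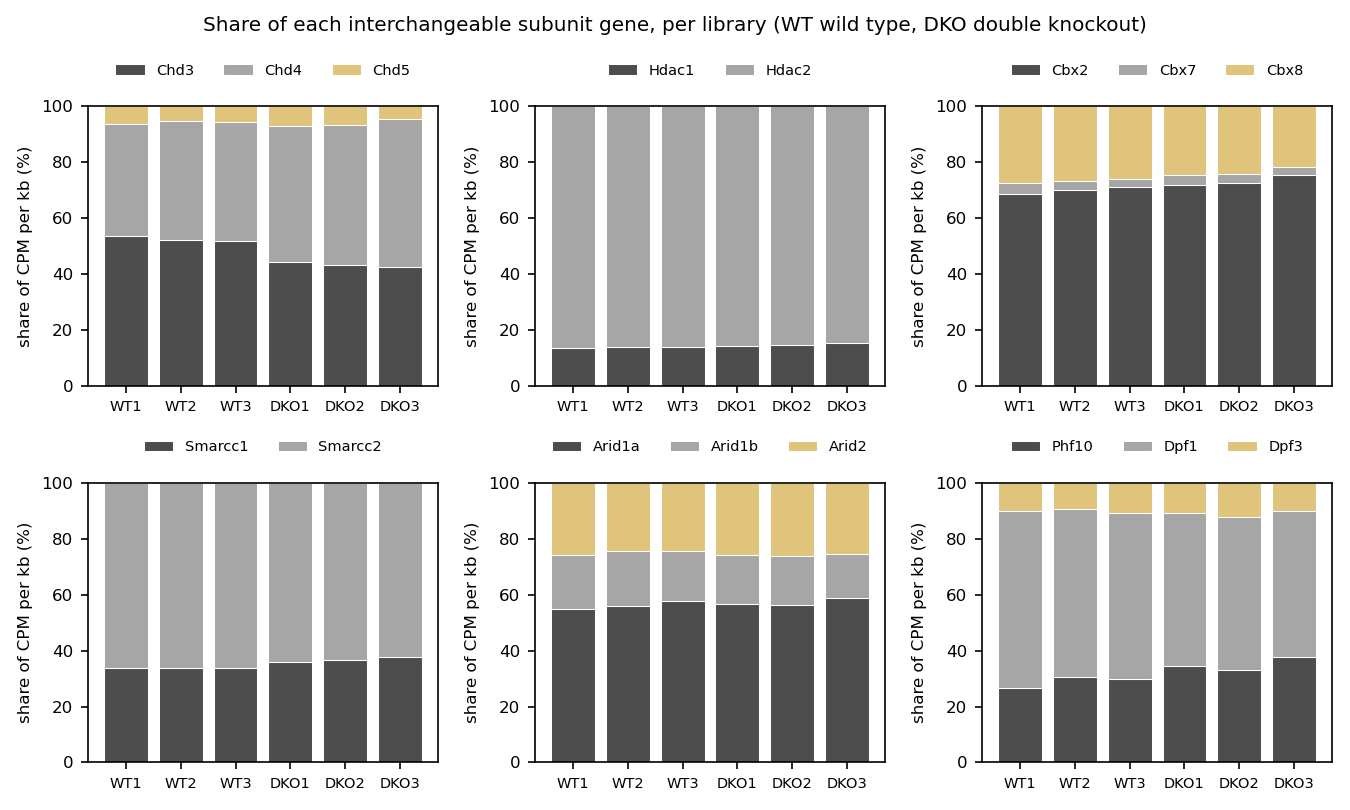
Share of the summed CPM per kb of exon (y axis, in percent) taken by each interchangeable subunit gene in each library (x axis), for 6 of 18 sets of paralogues, shown because at least 1 share did not overlap between the groups; no background share was computed for this choice. Chd3, Dpf1, Arid1b, Smarcc2, Cbx8 and, by a small gap, Hdac2 have smaller shares in each double knockout library, and Chd4, Phf10, Smarcc1, Cbx2 and Hdac1 larger ones.

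To set the members beside the neuronal markers, each was divided by the summed CPM of the 14 markers in the same library, a description chosen after the values had been seen. The largest parts of this sum were Dcx, Map2 and Tubb3, at wild-type means of 1928, 1771 and 1185 CPM. Their log2 fold changes were -0.37, -0.01 and -0.33, so the ratios depend on how the markers are weighted. Other weightings were not tried. Per 1000 CPM of neuronal markers, Chd3 was at 124.7 to 129.3 CPM in wild-type embryos and 99.4 to 111.2 CPM in double knockout embryos. Dpf1 was at 16.8 to 18.5 CPM and 14.2 to 16.5 CPM. Both stayed without overlap, with log2 ratios of -0.27 and -0.23 in place of -0.48 and -0.44. Bmi1 was at 17.3 to 18.9 CPM and 16.1 to 20.0 CPM, with overlap and a log2 ratio of -0.03. On this scale 4 members were lower without overlap, namely Chd3, Dpf1, Smarca2 and Actl6b, or 8.70% of the 46 against 2.44% of all tested genes. Another 12 members, or 26.1%, were higher. This was against 30% of all tested genes and 39.9% of those at least as abundant as the lowest member, since a lower marker sum raises every gene alike. Relative to the 12 progenitor markers, whose sum was higher in double knockout embryos by 0.15 on the log2 scale, 23 members were lower without overlap, Bmi1 among them, and none was higher. This was 50% of the members, against 21% of all tested genes and 31.0% of those at least as abundant as the lowest member, with 3.16% of all tested genes higher.

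Beyond the 46 members, 44 other genes of the complexes were examined, of which 3 were called, 2 lower and 1 higher. This was 6.82%, against 2.68% of all tested genes and 4.09% of those at least as abundant as the lowest member. The list was drawn up with earlier results of these data known, so this share is a description. The 2 lower genes were Bcl11a and Bcl11b, zinc-finger factors of neuronal differentiation that are also BAF subunits. Bcl11a (ENSMUSG00000000861) was at 465.1, 483.4 and 467.9 CPM in wild-type embryos and 299.9, 302.2 and 313.1 CPM in double knockout embryos, with a log2 fold change of -0.63 (standard error 0.0507) at an edgeR adjusted p of 4.01e-04. Bcl11b (ENSMUSG00000048251), which marks striatal projection neurons, was at 798.3, 765.7 and 774.1 CPM and 516.4, 500.7 and 593.5 CPM, with a log2 fold change of -0.54 (standard error 0.0733) at an edgeR adjusted p of 0.00665. Both fell by more than Dpf1 on the log2 scale, a difference between genes that was not tested.

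The gene that was higher was Sall3 (ENSMUSG00000024565), which encodes a zinc-finger factor that recruits NuRD. It was at 78.0, 77.2 and 89.1 CPM in wild-type embryos and 158.4, 142.5 and 165.5 CPM in double knockout embryos, with a log2 fold change of 0.93 (standard error 0.0755) at an edgeR adjusted p of 4.13e-04. Its family members Sall1 and Sall4 did not pass, at log2 fold changes of 0.11 and 0.67, and Sall4 was low, at 1.71 to 4.50 CPM. None of the 26 other Polycomb genes was called by edgeR. An unadjusted p under 0.05 was found for 4 of them, or 15.4%, against 13.3% of all tested genes. Scml4 had the smallest adjusted p among the uncalled other genes, at 0.171 in edgeR, with 14.8 to 18.7 CPM in wild-type embryos and 19.2 to 21.4 CPM in double knockout embryos.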

How the data were processed

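The authors deposited raw read counts per gene for 6 libraries, made with featureCounts on build GRCm39 per the submitters' processing notes. The aligner, annotation release and strand setting are not given in the sources used here. The libraries came from a stranded, ribosomal-RNA-depleted total RNA kit, per the labels' protocols. The members and lists were chosen with earlier results of these data known. Genes were filtered with filterByExpr (minimum count 10, minimum total 15), scaled by TMM and tested with edgeR 4.0.16 (quasi-likelihood, prior count 0.125 for fold changes) in R 4.3.3, without a pairing term. SE is the coefficient divided by the square root of F, and 95% intervals use the t distribution. The labels do not say that samples of 1 group came from separate litters, so p-values measure the spread between these samples. Exon lengths and overlaps came from GENCODE M21 (GRCm38). A length was found for 98.7% of tested genes. Exons of 19 of the 46 members overlap another gene, 16 of them one on the opposite strand. Their counts are uncertain if strand was ignored. Alternatives were 2 filters, 2 scalings, DESeq2 1.42.0, limma-voom (limma 3.58.1), a replicate block, a Y-linked covariate, other thresholds and leaving out each library. Functions were tested on simulated data. Values in full are given for called members, progenitor and neuronal BAF variants, catalytic subunits and the uncalled member of each complex with the smallest adjusted p. Pcgf2, Ring1, Jarid2, Smarcc1 and Smarcc2 were added after their values were seen.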

Additional observations from a re-analysis of the deposited data

How the results depend on the processing

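The count of 3 members called was 2 to 4 when each library was left out in turn and 5 in DESeq2, and the members called were lower in every alternative. The 14 alternative fits each called Chd3 and Dpf1, and 6 of them called Bmi1. Over all genes, the 634 called became 1162 in DESeq2, 358 with the Y-linked covariate, 275 at an adjusted p under 0.01 and 989 under 0.1, and ranged from 309 to 749 when each library was left out. The cause was not tested. Total count scaling called 390 genes higher and 256 lower in place of 317 and 317, moved the median log2 fold change of all genes to 0.03, and turned the uncalled values of Actl6a and Hdac2 to 0.011 and 0.0079. Other changes of sign came from leaving out a library, all among uncalled members. Their ranges were -0.26 to 0.048 for Chd5, -0.046 to 0.0068 for Hdac2, -0.068 to 0.0095 for Rbbp4, -0.020 to 0.15 for Mta1, -0.051 to 0.089 for Mta2, -0.0082 to 0.11 for Mbd2, -0.035 to 0.10 for Mbd3, -0.039 to 0.081 for Ezh2, -0.062 to 0.080 for Eed, -0.045 to 0.045 for Suz12, -0.0070 to 0.10 for Cbx7, -0.013 to 0.040 for Phc1, -0.036 to 0.085 for Arid1a, -0.020 to 0.073 for Arid2, -0.10 to 0.046 for Actl6a, -0.043 to 0.10 for Phf10 and -0.062 to 0.089 for Ss18. The replicate block called 2 members, with an adjusted p of 0.0613 for Bmi1 in edgeR, and 690 genes in all. Same-numbered libraries had correlations of -0.0694 to 0.0018 in their deviations from the group means. The other pairs of libraries had correlations of -0.0976 to 0.0973, and no library correlated best with its own number. No pairing by number was thus visible. Whether same-numbered embryos shared a litter cannot be told from these values.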
